A study of Homo sapiens with 4 samples.

Results

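The metallothionein cluster is a run of small genes on chromosome 16 (hg38), and 9 coding members were followed here from end to end: MT3, MT2A, MT1E, MT1M, MT1A, MT1F, MT1G, MT1H and MT1X, in that order along the plus strand. Members were taken by name, and every ATAC-seq peak that overlapped a member's GENCODE gene body extended by 5 kb on either side was used, whatever its value. The gene bodies lie between 56589074 and 56684196, 8 members are on the plus strand and MT1G alone is on the minus strand. The extended windows held 9 of the 80551 regions made by merging the peaks of all libraries, and a further 3 regions lay in the gaps between windows.

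The libraries are Omni-ATAC-seq of HepG2, a human hepatocellular carcinoma line of wild-type genotype: 2 control libraries of untreated cells and 2 libraries of cells given 5 µM tazemetostat, an inhibitor of the histone methyltransferase EZH2, for 48 h. The labels give no vehicle for the controls. Nothing says that the replicates came from separate cultures, so p-values measure the spread between these libraries, which may be technical. ATAC-seq counts transposase insertions in open chromatin, and it does not measure transcription.

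Metallothioneins are short, cysteine-rich proteins that bind zinc and copper, and cadmium when it is present. In liver cells their genes are classic targets of the zinc-sensing factor MTF1, which binds metal response elements (MREs) in their promoters. MT3 is the exception, since it is known mainly from the brain.

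Sequencing depth was 17.2 and 23.8 M mapped tags for the untreated libraries and 19.8 and 26.6 M for the treated ones. Of these tags 4.32% and 5.69%, against 11.51% and 9.81%, lay in peaks. The lists held 26133 and 34768 peaks in the controls against 55313 and 54157 with tazemetostat. The share of tags in peaks and the number of peaks thus moved with the treatment, and so did the fragment length set for peak calling, 200 bp in the controls and 144 bp with tazemetostat. Their part in the results below was not tested. As a check of the cell line, the starts of the hepatocyte markers APOA1, APOA2, APOB and HNF4A had a peak within 500 bp in every library, whereas this held for 0 of 5 leukocyte, 0 of 4 endothelial and 0 of 5 fibroblast and stellate markers. ALB had such a peak in 1 library, and AFP, TTR, SERPINA1 and FGB had none in any library. Among the markers of other cell types, LRAT had one in both tazemetostat libraries and CD14 in tazemetostat replicate 1.

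RefSeq promoters were at hand only for MT2A, MT1H and MT1X, and of these MT2A and MT1X had a peak there. The 250 bp before each start are shown. They are RefSeq promoters of GRCh38.p14, on the plus strand, at chr16:56608334-56608583, chr16:56669564-56669813 and chr16:56682220-56682469. Capitals mark the MRE core, TGCACNC or TGCGCNC read on either strand.
MT2A: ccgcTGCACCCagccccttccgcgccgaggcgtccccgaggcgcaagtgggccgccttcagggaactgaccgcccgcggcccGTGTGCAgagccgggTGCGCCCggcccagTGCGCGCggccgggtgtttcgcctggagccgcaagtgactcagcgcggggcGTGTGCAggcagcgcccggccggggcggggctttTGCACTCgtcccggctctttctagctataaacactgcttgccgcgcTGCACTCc
MT1H: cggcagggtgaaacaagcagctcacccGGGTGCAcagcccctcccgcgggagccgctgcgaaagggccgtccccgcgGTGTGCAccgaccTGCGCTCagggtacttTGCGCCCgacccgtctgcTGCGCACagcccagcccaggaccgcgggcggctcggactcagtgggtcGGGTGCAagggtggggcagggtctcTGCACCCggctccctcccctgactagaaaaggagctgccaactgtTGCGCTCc
MT1X: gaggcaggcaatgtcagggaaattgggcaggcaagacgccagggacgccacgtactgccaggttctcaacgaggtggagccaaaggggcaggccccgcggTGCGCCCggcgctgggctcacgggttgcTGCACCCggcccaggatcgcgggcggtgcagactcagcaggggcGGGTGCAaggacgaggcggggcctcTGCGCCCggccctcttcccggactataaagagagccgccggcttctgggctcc

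MT1H held 8 MRE cores, MT2A held 7 and MT1X held 4. Of 35116 RefSeq promoters of the same length, 24.8% held at least 1 core, and only 0.0171%, 0.0313% and 0.370% held as many as MT1H, MT2A and MT1X. MT2A and MT1X each also held 1 TATA box (TATAAA), found in 10.7% of promoters, 2 GC boxes (GGGCGG), found in 42.6%, and 1 antioxidant response element core (TGACNNNGC), found in 10.9%. MT1H held 1 GC box and neither of the other motifs. Both strands were searched throughout, and 1 of the MRE cores of MT1X overlapped another motif. A match of letters is a description and shows no binding. RefSeq promoters of MT1A, MT1E, MT1F, MT1G, MT1M and MT3 were not at hand.

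Accessible chromatin in the cluster lay at 7 places that were called in at least 3 libraries, 5 of them over a member's start. MT1E, MT1F, MT1G and MT1X had a peak within 500 bp of the start in all 4 libraries, as did 28.5% of coding genes. MT2A had one in 3 libraries, MT1A in tazemetostat replicate 1 alone, and MT3, MT1M and MT1H in none. For MT1H the nearest peak edge lay 1485 and 1189 bp from the start in the controls and 1347 and 1400 bp with tazemetostat, and that peak sits over the neighbouring start of MT1G, which is transcribed the other way. For MT1M no peak came within 5669 bp in any library, and for MT3 none came within 3894 bp.

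**Figure D1:**
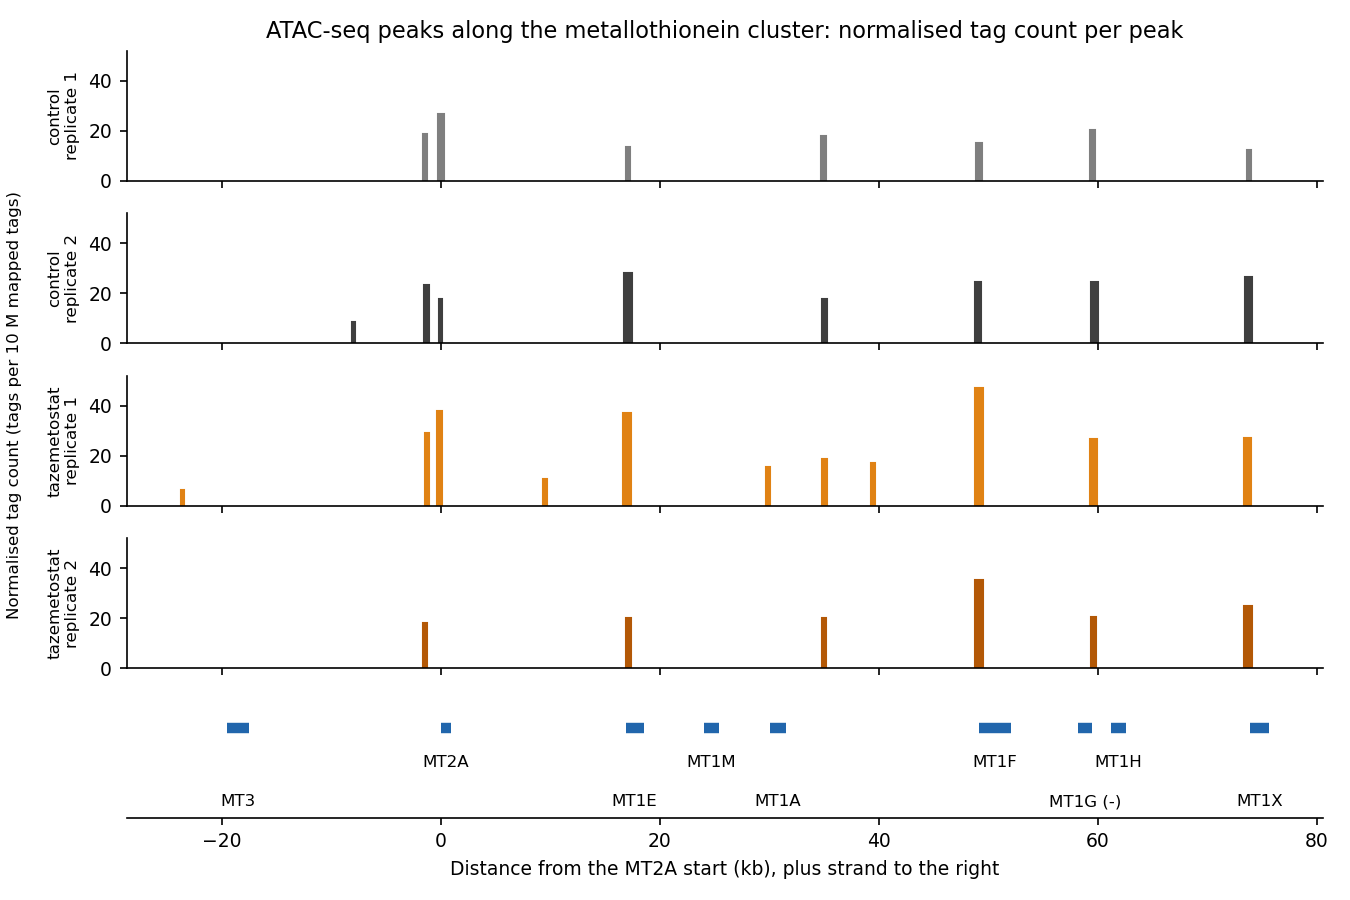
Peaks along the cluster in the 4 libraries, with the distance from the MT2A start in kb on the x axis and the normalised tag count of each peak (tags per 10 M mapped tags) as the bar height; bar widths are the peak lengths, and gene bodies are drawn below, with MT1G on the minus strand. The same 6 places recur in every library, and the tallest bar of each tazemetostat library is that over MT1F, at 46.9 and 35.4.

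All 9 regions of the windows were accounted for. Of these, 6 were called in every library (20.4% of all regions were), 1 was called in both controls and tazemetostat replicate 1 (0.883% of all regions were called in both controls and 1 tazemetostat library), and 2 were called in 1 library (46.2% of all regions). No region of the cluster was called in both tazemetostat libraries and neither control, against 13.7% of all regions, and none was called in both controls and neither tazemetostat library, against 0.449%. Without tazemetostat replicate 1, 1 region was called in the controls only, and without tazemetostat replicate 2, 2 were called with tazemetostat only. Leaving out a library loosens these classes for every region, and the matching shares of all regions are not at hand. The peaks of the windows rested on 13 to 94 tags each.

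MT1F, which encodes one of the MT1 isoforms of liver, had the clearest difference between the groups. The region over its start (chr16:56657338-56658083) had normalised tag counts, in tags per 10 M mapped tags, of 15.1 and 24.4 in the controls and of 46.9 and 35.4 with tazemetostat. Both treated libraries lay above both controls, and so did the treated values in 81.6% of all tested regions. The means were 19.8 ± 6.58 and 41.1 ± 8.13 (SD, n = 2 each), a ratio of 2.08. In limma on log2(normalised tag count + 1), fitted over the 15383 regions with exactly 1 peak in each library, MT1F rose by 1.05 on the log2 scale (SE 0.32, 95% interval 0.39 to 1.70, adjusted p = 0.0189).

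The peak over MT1F was also longer and stood further above its surroundings. It measured 473 and 578 bp in the controls and 696 and 698 bp with tazemetostat, from 26 and 58 against 93 and 94 tags. The fold over the surrounding 10 kb was 5.21 and 5.71 in the controls and 8.68 and 8.57 with tazemetostat, without overlap between the groups. At MT1G this fold did not overlap either, at 4.30 and 4.15 in the controls and 4.88 and 5.12 with tazemetostat. The share of all tested regions that separate in local fold or length is not at hand. Per kb of peak, the log2 change of MT1F was 0.66 (limma, adjusted p = 0.0176), against a median of 0.41 over all tested regions. The 2 treated peaks of MT1F were the only ones of the windows with a local fold of at least 8.

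The other 5 tested regions did not pass the threshold, so 1 of 6 was called higher and 0 were called lower, whereas 42.7% of all tested regions were called higher and 0.247% lower. The call of MT1F depended on the scaling and on single libraries. It did not depend on control replicate 2, without which the log2 change in limma was 1.37. After each library was centred on its median, the log2 change of MT1F was 0.29 (limma, adjusted p = 0.715), and 0% of all tested regions were called higher and 0% lower, while before adjustment 468 rose and 1188 fell at a p under 0.05. Without control replicate 1 the log2 change of MT1F in limma was 0.72, against a median of 0.57 over all tested regions. The call of MT1F was lost there, though other regions were still called. It was also lost without tazemetostat replicate 1 (log2 change 0.85, median of all regions 0.61) and without tazemetostat replicate 2 (1.24, median 0.80). Without either tazemetostat library limma called 0 of the 15383 regions, so the losses in those fits are not particular to MT1F. At an unadjusted p under 0.05 there were 3238 rises and 39 falls without tazemetostat replicate 1, and 5977 and 32 without tazemetostat replicate 2.

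MT1X, another MT1 isoform, carried the MRE cores printed above inside the region over its start (chr16:56681944-56682652). Its normalised tag counts were 12.2 and 26.5 in the controls and 27.2 and 24.8 with tazemetostat. Control replicate 1 was low and the remaining libraries lay close together, so the groups overlapped. The log2 change was 0.50 (SE 0.33, 95% interval -0.19 to 1.20, limma adjusted p = 0.191).

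MT1E, whose product is also an MT1 isoform, showed the same order of controls. The region over its start (chr16:56625275-56626031) had normalised tag counts of 13.4 and 28.2 in the controls and 37.3 and 20.3 with tazemetostat. Control replicate 1 was the lowest and tazemetostat replicate 1 the highest, with the other two libraries between them. The log2 change was 0.48 (SE 0.36, 95% interval -0.26 to 1.22, limma adjusted p = 0.236). In control replicate 1 and tazemetostat replicate 2 the peak began 46 and 47 bp after the annotated start of the gene. With control replicate 1 as the only control, limma gave MT1E and MT1X log2 changes of 0.99 and 1.03. The median over all tested regions was then 0.80. With control replicate 2 as the only control, both were -0.03, against a median of 0.57.

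MT1G, the minus-strand member, had normalised tag counts of 20.4 and 24.4 in the controls and 26.7 and 20.7 with tazemetostat over its start (chr16:56667827-56668625). The groups overlapped, with a log2 change of 0.07 (SE 0.30, 95% interval -0.55 to 0.70, limma adjusted p = 0.830). The interval at MT1F, 0.39 to 1.70, overlaps that one, and the difference between MT1F and MT1G was not tested.

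**Figure D2:**
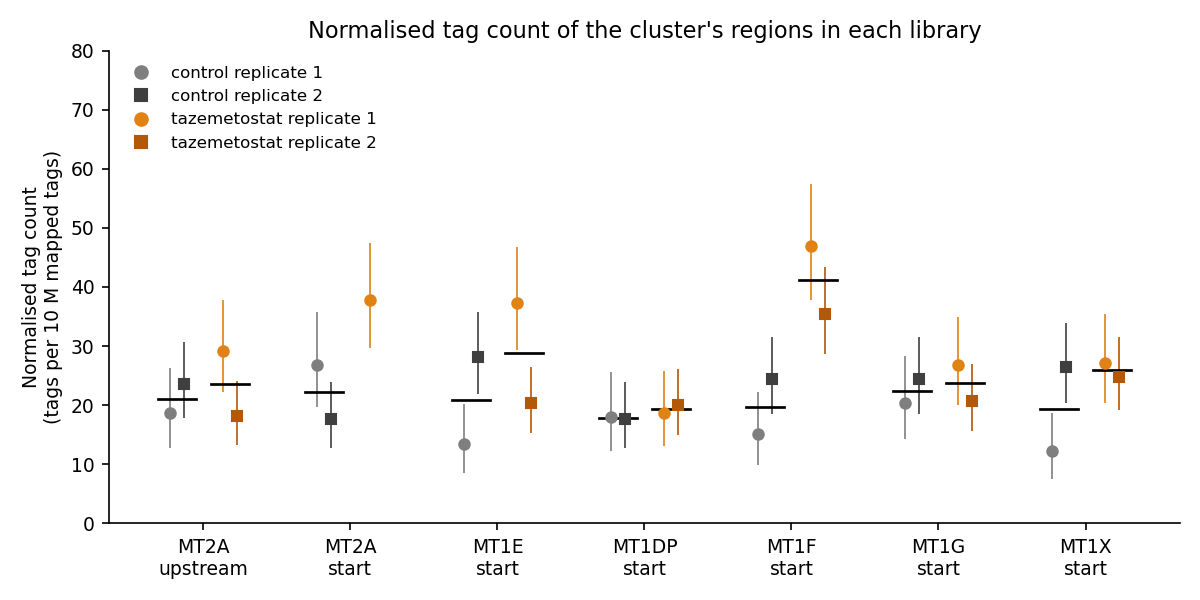
Normalised tag count (tags per 10 M mapped tags, y axis) of the 7 regions called in at least 3 libraries, along the cluster on the x axis; points are libraries, vertical lines are 95% Poisson intervals of the tags in each peak, and black bars are group means where both libraries had a peak. MT1F separates the groups most widely, whereas control replicate 1 lies apart from control replicate 2 at MT1E and MT1X, and tazemetostat replicate 2 has no point at the MT2A start.

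MT2A, which encodes the main metallothionein of many tissues, had a start peak in 3 of the 4 libraries. The region over it (chr16:56608235-56608862) had normalised tag counts of 26.8 and 17.6 in the controls and 37.8 in tazemetostat replicate 1, while tazemetostat replicate 2 had no peak there. The nearest peak of that library ended 1267 bp from the start. Places without a listed peak have no value, so the level in tazemetostat replicate 2 is unknown and no fit was made. The local fold was 5.15, 4.92 and 4.71 in the libraries that had the peak, not far above the 4 that a peak had to reach. The search for coding genes with values most like those at the MT2A start could not be made without the missing value.

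The nearest peak of tazemetostat replicate 2 belongs to a second region, upstream of MT2A (chr16:56606931-56607566), which overlaps no gene at its centre. Its normalised tag counts were 18.6 and 23.5 in the controls and 29.2 and 18.1 with tazemetostat, so the groups overlapped. The log2 change was 0.13 (SE 0.31, 95% interval -0.52 to 0.78, limma adjusted p = 0.705), and per kb of peak it was 0.51 (limma adjusted p = 0.0575). The stretch shared by the peaks of all 4 libraries (chr16:56607156-56607308, hg38, plus strand) is shown in lower case throughout because, unlike the promoters above, it holds no MRE core.
MT2A upstream: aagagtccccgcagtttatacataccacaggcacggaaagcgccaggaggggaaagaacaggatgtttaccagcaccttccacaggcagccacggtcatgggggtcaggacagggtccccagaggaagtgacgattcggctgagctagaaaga

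Downstream of MT1A, whose own product is an MT1 isoform, a region (chr16:56643318-56643822) spanned the start of the pseudogene MT1DP. Its normalised tag counts were 18.0 and 17.6 in the controls and 18.6 and 20.0 with tazemetostat. This was the steadiest place of the cluster: both treated libraries lay above both controls, but the means, 17.8 ± 0.283 and 19.3 ± 0.990 (SD, n = 2 each), differed by 1.50. The log2 change was 0.11 (SE 0.29, 95% interval -0.50 to 0.72, limma adjusted p = 0.737).

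The 2 regions called in 1 library both belonged to tazemetostat replicate 1. The first, upstream of MT3, had a normalised tag count of 6.55 from 13 tags. The other ended 38 bp before the start of MT1A and had a normalised tag count of 15.6 from 31 tags. The lowest normalised tag counts listed in the other libraries were 6.40 and 5.04 in the controls and 4.89 in tazemetostat replicate 2. A peak also had to reach a local fold of 4, and these 2 peaks had 4.38 and 4.42. The lowest listed counts therefore set no upper bound on the level at places without a peak.

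Composition set the places over metallothionein starts apart from the region upstream of MT2A. In the central 300 bp, the region over the MT2A start held 7 MRE cores, those of MT1G and MT1DP 5 each, that of MT1X 4, and those of MT1E and MT1F 3 each. Among all 80551 regions 25.0% held at least 1 core and 1.34% held at least 3. The 6 had a GC content of 67.7% to 71.7%, against a median of 52.3% over all regions, and a ratio of observed to expected CpG of 0.63 to 0.93, against a median of 0.25. The region upstream of MT2A had 0 cores, a GC content of 56.7% and a CpG ratio of 0.33. The region called in 1 library before MT1A had 1 core, a GC content of 70.3% and a CpG ratio of 0.87. That upstream of MT3 had 0 cores, 47.3% and 0.12. All regions include many away from gene starts, and no comparison with the starts of other genes was made. Since family members resemble each other, 31-base words were searched across the genome: at most 2.86% of the words in any region of the windows occurred more than once.

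The peaks of the cluster stood little above their surroundings. Of the 29 peaks in the windows over all libraries, 24 had a local fold below the median of their own library and 19 had a local fold under 5, as did 33.9% of all 170371 peaks. The median local fold of the cluster's peaks was 4.51 and 4.34 in the controls and 4.71 and 4.80 with tazemetostat, against 5.92, 5.65, 6.09 and 5.75 for all peaks of the same libraries. The tag counts of the 6 tested regions were not low. Their mean normalised tag counts lay between percentiles 30.5 and 67.4 of all tested regions, with MT1F highest and MT1DP lowest. Of the window peaks outside these regions, that upstream of MT3 lay at percentile 0.705 of its library. The others lay at percentile 52.8 or higher.

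**Figure D3:**
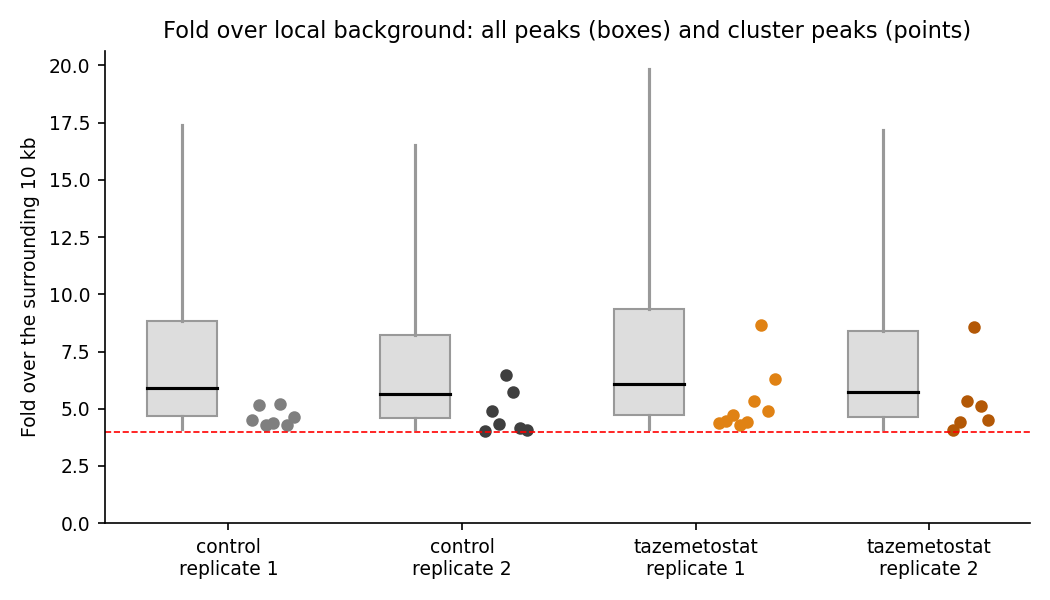
Fold of each peak over the surrounding 10 kb (y axis) in each library (x axis): boxes show the quartiles of all peaks, whiskers the 5th and 95th percentiles, points the peaks of the cluster and the dashed line the fold of 4 required of a peak. Most points lie under the median line of their library, and the points above 8 are MT1F in both tazemetostat libraries.

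Over the whole cluster, the number of peaks in the windows was 7 and 7 in the controls and 9 and 6 with tazemetostat. The groups overlapped, with a difference of means of 0.500 peaks (exact permutation test, two-sided, p = 1.000). The summed normalised tag count was 125 and 162 in the controls and 246 and 139 with tazemetostat, over 3099 and 3748 bp against 4385 and 2988 bp of peaks. The difference of 49.2 came from tazemetostat replicate 1, since tazemetostat replicate 2 lay between the controls (exact permutation test, two-sided, p = 0.6667). Without tazemetostat replicate 1 the differences were -1.0 peaks and -4.05 in summed normalised tag count. The sum of tazemetostat replicate 2 adds nothing for the MT2A start, where it had no listed peak and its level is unknown. The controls had normalised tag counts of 26.8 and 17.6 there, each larger than that difference.

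Per kb of peak, the normalised tag count was 40.2 and 43.3 in the controls and 56.1 and 46.6 with tazemetostat. Both treated libraries were higher, by 9.62 on average, which gave p = 0.3333 in the exact permutation test (two-sided), the smallest that 2 against 2 libraries allow. The same density over all peaks was 39.8 and 36.6 in the controls and 45.4 and 39.3 with tazemetostat.

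The median log2 change of the 6 tested regions was 0.31, with a range of 0.07 to 1.05. It was 0.70 over all tested regions and 0.73 over the 4048 tested regions that span the start of a coding gene. In limma with the deposited scaling, MT1F alone lay above the median of all regions, at percentile 84.7, while MT1X and MT1E lay at percentiles 27.2 and 25.2 and the remaining 3 regions at 7.20 or lower. Median centring moved the median of all regions to -0.06 and that of the cluster to -0.45, and the sign of every tested region but MT1F then turned negative, with no call. The order against all regions turned round in edgeR on the tags of the initial 300 bp peak, where the median of the 6 was 0.40 against 0.20 over all tested regions, and 4 of 6 lay above the latter. With TMM factors these medians were 0.21 and 0.01, again with 4 of 6 above. MT1G then had log2 changes of 0.57 and 0.38, and the region upstream of MT2A 0.48 and 0.28, with no call in either fit.

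**Figure D4:**
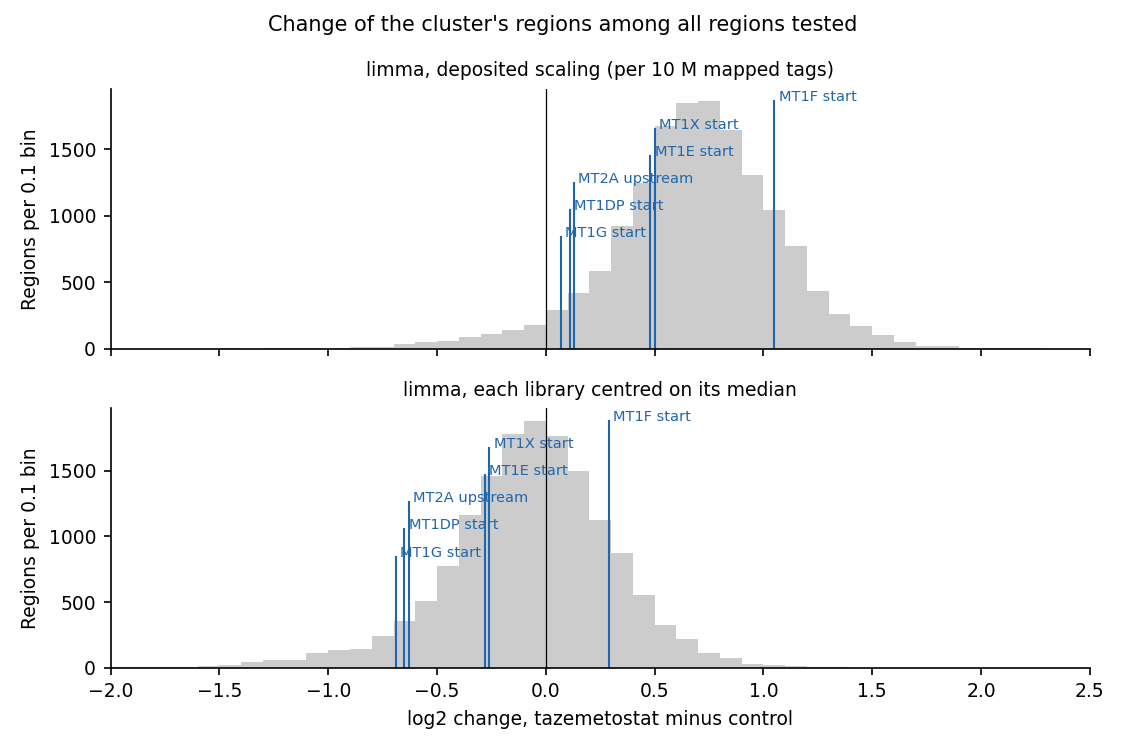
Histograms of the log2 change (tazemetostat minus control, x axis) of all 15383 tested regions, as regions per 0.1 bin (y axis), with the 6 tested regions of the cluster as blue lines whose heights only separate the labels; the upper panel uses the deposited scaling and the lower panel centres each library on its median. MT1F, at 1.05 and 0.29, is the only line to the right of the middle of either histogram.

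Genes that move the metals bound by metallothioneins were described by the same windows. The lists held MTF1 with the zinc exporters of the SLC30 family, the zinc importers of the SLC39 family, and copper-handling genes, 34 genes in all. Of their 121 regions 48 could be tested, and 19 (39.6%) were called higher in limma and 0 lower, near the 42.7% of all tested regions. Their median log2 change was 0.70, that of all regions, and 11 of the 121 (9.09%) were called in both tazemetostat libraries alone, against 13.7% of all regions.

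The largest rises of these lists were at SLC39A9 and SLC30A7, both over the start, and within the window of SLC39A11. SLC39A9, a zinc transporter of the SLC39 family, had normalised tag counts of 16.3 and 17.6 in the controls and 49.4 and 41.0 with tazemetostat, a log2 change of 1.36 (SE 0.30, limma adjusted p = 0.00711). The region of SLC39A11 had 7.56 and 7.56 against 21.2 and 20.0, a log2 change of 1.33 (SE 0.29, limma adjusted p = 0.00722). The treated libraries lay above the controls at both regions and at that of SLC30A7, as in 81.6% of all tested regions. These regions were picked for the size of their rise.

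SLC30A7, an exporter that loads zinc into the secretory pathway, had 14.5 and 7.98 against 34.8 and 21.8, a log2 change of 1.28 (SE 0.33, limma adjusted p = 0.0123). The smallest rises past the threshold were 0.75 at a second region of SLC39A11, 0.77 at CP, which encodes the copper-carrying plasma protein ceruloplasmin, and 0.78 at SLC30A10, a zinc and manganese exporter, which regions of SLC39A11 and SLC39A5 matched to 2 decimals. After median centring none of these regions was called.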

How the data were processed

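Omni-ATAC-seq was measured in 4 libraries of HepG2 cells, grouped by their titles and treatment labels. The authors' notes name Trim Galore 0.6.6 for trimming, Bowtie2 2.3.5.1 for alignment to hg38 and HOMER 4.11.1 for peak calling, which was done per library. Per the file headers a peak had to reach a local fold of 4 over 10 kb with a local p of 0.0001, at a false discovery rate of 0.001, while the methods state 0.05. As deposited, the normalised tag count is a signal: tags in a region, scaled to 10 M mapped tags. The deposited fold over local background is a ratio. The deposited findPeaks score was taken to be the count in the initial 300 bp peak, and its meaning after stitching is unclear. A shift of tags for the transposase is not given in the sources used here.

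Peaks were merged across libraries at an overlap of at least 1 bp and annotated with GENCODE release 44. limma 3.58.1 in R 4.3.3 (no block, Benjamini-Hochberg, threshold 0.05) was run on log2(normalised tag count + 1). Changes of low values are understated on this scale. It was tested on simulated data. Values per library were tested between groups by exact permutation, two-sided. edgeR 4.0.16 was run on the score as an alternative chosen after seeing the data. Other alternatives were the pseudocount, centring, length scaling, a filter on low values, other windows, stricter peaks, equal peak numbers, the replicate block and leaving out each library. Tags per peak were computed from the normalised tag count and the mapped tags, and 95% Poisson intervals cover counting error only. Every region of the windows was reported. From the zinc and copper lists the 3 largest and 3 smallest log2 changes past the threshold were named. The members and lists were chosen with earlier results of these data known. Part of the hepatocyte marker list is not reported here.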

Additional observations from a re-analysis of the deposited data

How the results depend on the processing

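The 4 libraries limit all values: 13 to 94 tags per peak give wide intervals, and a place without a listed peak has no value. The difference in peak number was 0 with a window of 1 kb and 0 with equal peak numbers per library. Leaving out a library gave differences from -1.0 to 2.00 in peak number, from -4.05 to 102 in summed normalised tag count and from 4.89 to 14.3 in its density. With a local fold of at least 8, 1 region (MT1F) was called with tazemetostat only, and density had no value because the controls had no such peak. Without a library, the number of tazemetostat-only regions ranged from 0 to 2, with 2 without tazemetostat replicate 2, and that of control-only regions from 0 to 1. The shares of all regions at that local fold or without a library are not at hand. The number of regions called higher was 0 after median centring, 0 in edgeR on the score with header library sizes, 0 with TMM factors, and ranged from 0 to 3 when a library was left out. In edgeR on the score no region of all those tested was called either way, while before adjustment 1077 rose and 223 fell at a p under 0.05 (487 and 599 with TMM factors). MT1F had log2 changes of 0.90 and 0.71 there.

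The log2 change turned negative after median centring at the region upstream of MT2A (-0.63), MT1E (-0.28), MT1DP (-0.65), MT1G (-0.69) and MT1X (-0.26), and with TMM factors at MT1E (-0.13) and MT1X (-0.14). Leaving out a library gave -0.20 to 0.46 upstream of MT2A, -0.03 to 0.99 at MT1E, -0.10 to 0.25 at MT1G and -0.03 to 1.03 at MT1X, negative without control replicate 1 at all 4 and without tazemetostat replicate 1 upstream of MT2A (-0.20) and at MT1G (-0.10). With 1 library in a group, that library is assumed to vary like the others. The cause was not tested. The replicate block gave 1 region called higher (MT1F, log2 1.05, adjusted p = 0.0201) and differences of 0.500 peaks, 49.2 in summed tag count and 9.62 in density. The labels do not say whether libraries of equal number were handled together. Deviations of equal numbers had a correlation of -0.002 over 15383 regions, but 1 correlation from 4 libraries cannot settle this. Planned count fits on whole tags derived from the normalised tag count (edgeR and DESeq2) are not reported, because that column was not accepted as counts.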

Other observations

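The 3 regions in the gaps between the members' windows were each called in 1 library. In control replicate 2 a peak about 8 kb upstream of MT2A had a normalised tag count of 8.40 from 20 tags. In tazemetostat replicate 1 a peak within the pseudogene MT1L had 10.6 from 21 tags, and 19.0% of its 31-base words occurred elsewhere in the genome. In the same library a peak about 9 kb downstream of the MT1A start, near the pseudogene MT1CP, had 17.1 from 34 tags and 4 MRE cores in its central 300 bp. With the 2 regions of the windows called in tazemetostat replicate 1 alone, that library held 4 of the 5 regions of the stretch that were called in 1 library. It also had the longest peak list, with 55313 peaks. Its share among all regions called in 1 library is not at hand.

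Of the 8 other metallothionein genes and pseudogenes, MT1DP alone had a peak within 500 bp of its start in all 4 libraries. MT4, MT1L and MT1CP had one in 1 library, and MT1B, MT1JP, MT1IP and MT1HL1 in none. The 1 region called higher within the windows of these genes is that over the MT1F start, which the window of MT1B also reaches.

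Beyond the cluster, 4 of 8 flanking genes had a start peak in every library: NUDT21, OGFOD1, NUP93 and HERPUD1. Of all coding genes 28.5% had one. Of their 9 tested regions, 3 were called higher in limma and 0 lower, with a median log2 change of 0.63. Over all tested regions 42.7% were called higher, with a median of 0.70.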
